A study of Sus scrofa with 12 samples.

Results

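The genes described here are the cytokines, chemokines and their receptors measured in the jejunum of 12 piglets. They were chosen by name: CCL, CXCL, CCR or CXCR followed by a digit, IL followed by a digit, TNFSF, and TNF, IFNG and TGFB1. Of 17049 gene names in the deposited table, 109 matched, from 166 loci, and 73 of these had a mean of at least 0.5 FPKM (fragments per kilobase of transcript, scaled to the mapped fragments of the library) over the 12 libraries. These 73 members stand among 12886 gene names that passed the same filter, and comprise 24 chemokine ligands, 8 chemokine receptors and 41 other members. The naming rule brings in a few genes that are not cytokines or receptors, among them IL4I1, an enzyme that oxidises amino acids, and IL18BP, a binding protein that neutralises IL-18.

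Poly(A) RNA of the jejunum, the middle stretch of the small intestine, was sequenced as paired-end libraries from 4 groups of 3 piglets. Sows received a corn and soybean meal diet without resveratrol (Con) or the same diet with 300 mg/kg resveratrol, a plant polyphenol (Res), from day 20 after breeding until the end of lactation. Piglets were taken at 21 days of age, when weaning took place (W_Con and W_Res, called sucking piglets here), or at 28 days, after a week without the sow (PW_Con and PW_Res, called weaned piglets here). The piglets themselves are not described as receiving resveratrol, and litters were cross-fostered within a diet, so that the treatment is maternal in all Res groups. Age and weaning changed together, since no unweaned piglet of 28 days was sampled, and cannot be told apart. The sample records describe sows inseminated with pooled Landrace semen and piglets that stayed in their pens, whereas the study's methods describe Yorkshire × Duroc litters that were moved at weaning. The study's methods, which describe litters on a single diet, took 1 male piglet per litter at each age. The records do not say whether this holds for the resveratrol groups, or which sucking and weaned piglets shared a sow.

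Chemokines are small secreted proteins that guide leukocytes through G protein-coupled receptors, and cytokines are secreted or membrane-bound signals that act on immune and epithelial cells. In the small intestine, CCL25 and its receptor CCR9 bring lymphocytes to the epithelium and lamina propria, CXCL13, CCL19 and CCL21 organise the lymphoid follicles and T cell zones of the gut wall, and CXCL8 and IL-1β are early signals of inflammation. Weaning ends the supply of milk and its antibodies and brings solid feed, at an age when the mucosal immune system is still being populated.

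CCL25, which draws CCR9-bearing lymphocytes to the small intestine, was by far the most abundant member, with a mean of 722 FPKM and a share of 53.3% of the summed mean FPKM of all 73. It had 639 ± 45 FPKM (SD, n = 3) in W_Con, 641 ± 103 in PW_Con, 760 ± 44.6 in W_Res and 848 ± 136 in PW_Res. No difference between these groups met the study's standard for CCL25, a P under 0.05 with a log2 fold change beyond 1 in either direction. This standard was applied here to the unadjusted P of limma, a test that the study's methods do not name. The next members by mean level were CXCL10 (76.1 FPKM), an interferon-induced ligand of CXCR3, and CXCL14 (71.4 FPKM), a chemokine made by epithelia. They were followed by CXCL16 (48.1 FPKM), the ligand of CXCR6, the receptor chain IL13RA1 (37.7 FPKM), CCL21 (35.9 FPKM) and CCL5 (32.2 FPKM), a chemokine of T cells and NK cells. IL18BP (24.9 FPKM), CCL19 (23.8 FPKM) and IL2RG (23.6 FPKM), the receptor chain shared by several interleukins, completed the 10 highest, which together held 81.0% of the sum. Most members were far lower: 29 of the 73 had a mean under 2 FPKM and only 16 reached 10 FPKM, and the median member level of 2.52 FPKM compares with 4.84 FPKM over all gene names tested.

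Several cytokines that are widely discussed for the gut were below the filter and were not tested. Means of 0.116 FPKM for IL6, 0.0519 for IL17A, 0.287 for IL22, 0.0870 for IL21 and 0.119 for IL13 were found over the 12 libraries, and CXCR5, the receptor of CXCL13 on B cells, had 0.0950 FPKM. In all, 36 of the 109 matched names were below 0.5 FPKM. The nearest to the limit were TNFSF14 at 0.491, TNFSF11 at 0.474 and IL4 at 0.470 FPKM below it, and CCL23 at 0.501, IL17REL at 0.519 and IL23R at 0.760 FPKM above it. FPKM are not read counts, so that the depth behind a low value is unknown, and a low mean does not show that a cytokine was absent.

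Pearson's r of log2(FPKM + 1) between libraries of a group, across genes that are not independent replicates, was 0.881 to 0.961. The defining epithelial markers were high in every library (VIL1 at 296 to 1062 FPKM and KRT20 at 442 to 1257 FPKM). The summed FPKM of 9 epithelial markers was lowest in W_Res2, at 2551 against 4587 to 7334 in the other libraries. The extraction protocol in the sample records speaks of adipose tissue, and of the 2 adipocyte genes in the table LEP was listed at 0 in 11 of 12 libraries and at 0.0341 FPKM in the other, while CIDEC, a lipid droplet gene, had 23.0 to 78.9 FPKM. W_Res1 and W_Res2 carried more smooth muscle RNA: the summed FPKM of 6 smooth muscle markers was 1793 and 3929 there against 152 to 658 in the other 10 libraries. W_Res3 had the lowest mean r with its own group (0.893) and the highest value for 15 of the 73 members. The median FPKM over loci was 1.12 in W_Res2 and 0.836 in W_Res3, against 0.238 to 0.479 elsewhere. PW_Con2 carried B cell and follicle transcripts, with MS4A1 at 8.10 and CR2 at 18.7 FPKM, where no other library exceeded 0.986 and 2.33 FPKM. Calls of named members that were lost without W_Res1, W_Res2 or PW_Con2 are given beside the gene. In bulk tissue, fewer cells of a type and less RNA per cell cannot be told apart.

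In weaned piglets, several chemokines and cytokines of inflammation and of lymphoid tissue were lower in resveratrol than in control litters: CXCL13, CXCL9, CCL19, CXCL2, CXCL8, CCL4, IL1B1 and the receptors CXCR4 and CCR7. In PW_Res against PW_Con, 9 members fell and 1 rose at the study's standard, or 13.7% of the members against 1.55% of all gene names tested. The falls alone made up 12.3% of the members against 0.9% of all gene names. At an unadjusted P under 0.05 in limma, without a limit on size, 20 members (27.4%) were lower and 1 (1.37%) was higher, where 5.25% of all gene names were lower and 2.51% higher. No member, and no gene name of the 12886, had a Benjamini-Hochberg adjusted p under 0.05 in limma in this comparison. Without PW_Con2 and W_Res2, 10 members (13.7%) fell at the standard, against 1.16% of all gene names. The members' median log2 fold change was -0.34, against -0.07 over all gene names tested, and 20 of the 73 (27.4%) were above 0, against 41% of all gene names. The median was -0.68 for the 24 chemokine ligands (19 below 0), -0.46 for the 8 chemokine receptors (7 below 0) and -0.18 for the 41 other members (27 below 0), and the 20 members lower at an unadjusted P under 0.05 were 9 ligands, 3 receptors and 8 others. The difference between these classes was not tested. The share of members and of all gene names past P in each comparison, and the members ranked by fold change, were plotted.

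**Figure D1:**
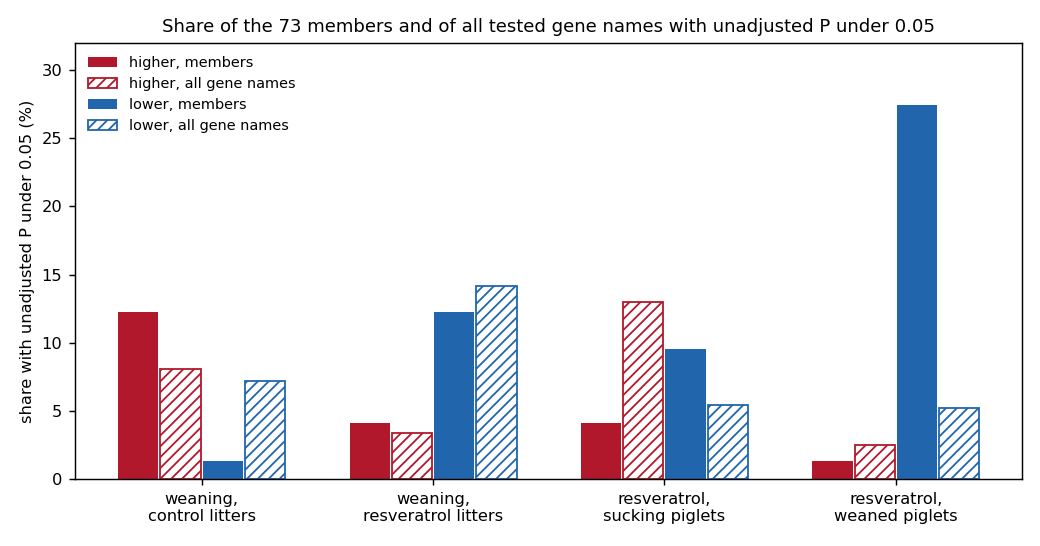
Bars give the percentage of the 73 members (filled) and of the 12886 tested gene names (hatched) with an unadjusted P under 0.05 in limma, higher in red and lower in blue, for 4 comparisons. In weaned piglets 27.4% of the members were lower with maternal resveratrol, against 5.25% of all gene names.

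**Figure D2:**
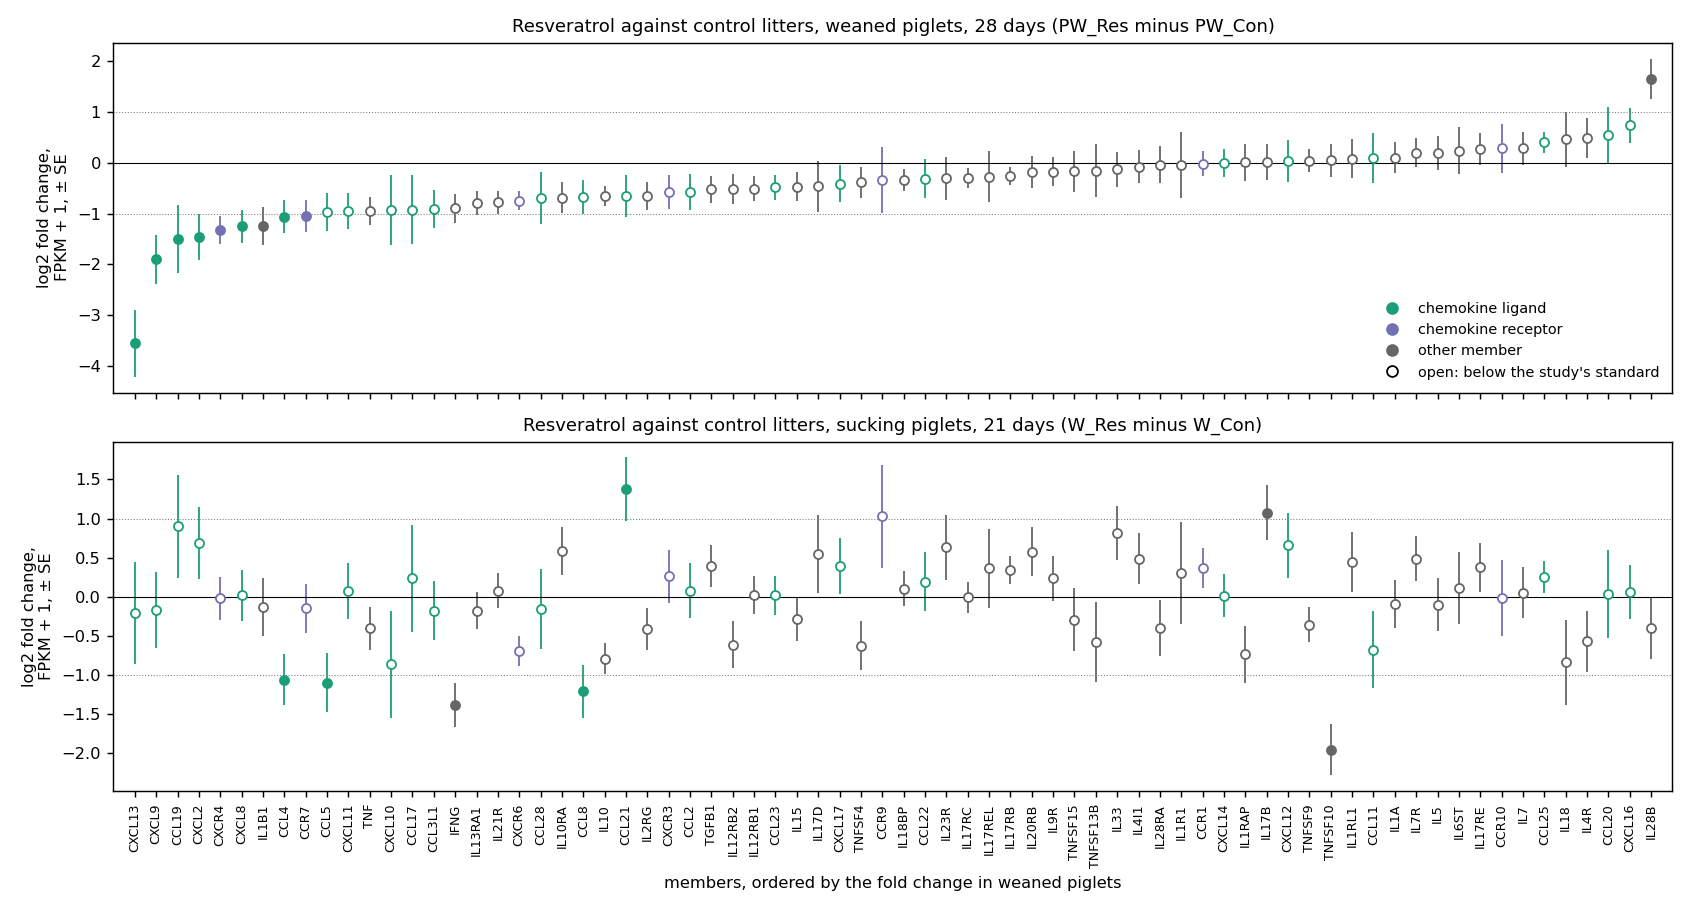
Each point is the log2 fold change of a member (all but 1 of the 73) with its standard error, for resveratrol against control litters in weaned piglets (upper panel) and sucking piglets (lower panel), in the same order. Filled points met the study's standard: 10 members in the upper panel, from CXCL13 at -3.55 to IL28B at 1.65, and 7 in the lower.

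CXCL13, which attracts B cells into follicles, showed the largest difference. It had 28.5, 24.6 and 6.14 FPKM in PW_Con and 1.25, 0.0710 and 0.385 FPKM in PW_Res. Every PW_Res library was below every PW_Con library, and below each W_Con library as well (4.40, 1.67 and 5.38 FPKM). The log2 fold change, on the log2(FPKM + 1) scale that understates changes of low genes, was -3.55 (standard error 0.65, limma adjusted p = 0.335). The fall was kept with each library left out, at -4.20 to -3.18, so that it did not rest on PW_Con2. PW_Con1, with the highest CXCL13, had MS4A1, a B cell surface gene, at 0.116 FPKM, where PW_Con2 had 8.10 FPKM.

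CCL19, a ligand of CCR7 made in T cell zones, had 10.8, 105 and 44.7 FPKM in PW_Con and 7.72, 18.2 and 14.2 FPKM in PW_Res. The groups overlapped, since PW_Con1 lay within the range of PW_Res, and the highest library was PW_Con2. The log2 fold change was -1.50 (standard error 0.66, limma adjusted p = 0.629). Without PW_Con replicate 2 it no longer met the standard, and it was lost in 13 of 22 alternatives, those without W_Res replicate 1 or 2 included. CCR7, the receptor of CCL19 and CCL21 on naive T cells and mature dendritic cells, had 3.72, 7.48 and 3.52 FPKM in PW_Con and 1.32, 2.38 and 1.65 FPKM in PW_Res. These groups did not overlap, and the log2 difference was -1.04 (standard error 0.31, limma adjusted p = 0.466). The call was lost without PW_Con replicate 2 or PW_Res replicate 1, and under either rescaling of the libraries. CXCR4, the receptor of CXCL12, had 9.58, 13.3 and 13.3 FPKM in PW_Con and 4.35, 3.84 and 4.34 FPKM in PW_Res. The PW_Res libraries were close together and all below the PW_Con libraries, and CXCR4 fell by 1.32 on the log2 scale (standard error 0.28, limma adjusted p = 0.371), a call kept in all 22 alternatives. Its ligand CXCL12, the sum of 2 loci, overlapped between the diets, at 7.53, 10.0 and 4.28 FPKM in PW_Con and 12.0, 2.69 and 9.99 FPKM in PW_Res. The lower locus was listed at 5.42 and 5.33 FPKM in PW_Res1 and PW_Res3 and at 0 in every other library. The main locus alone had 6.61, 2.69 and 4.66 FPKM in PW_Res and overlapped PW_Con as well.

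**Figure D3:**
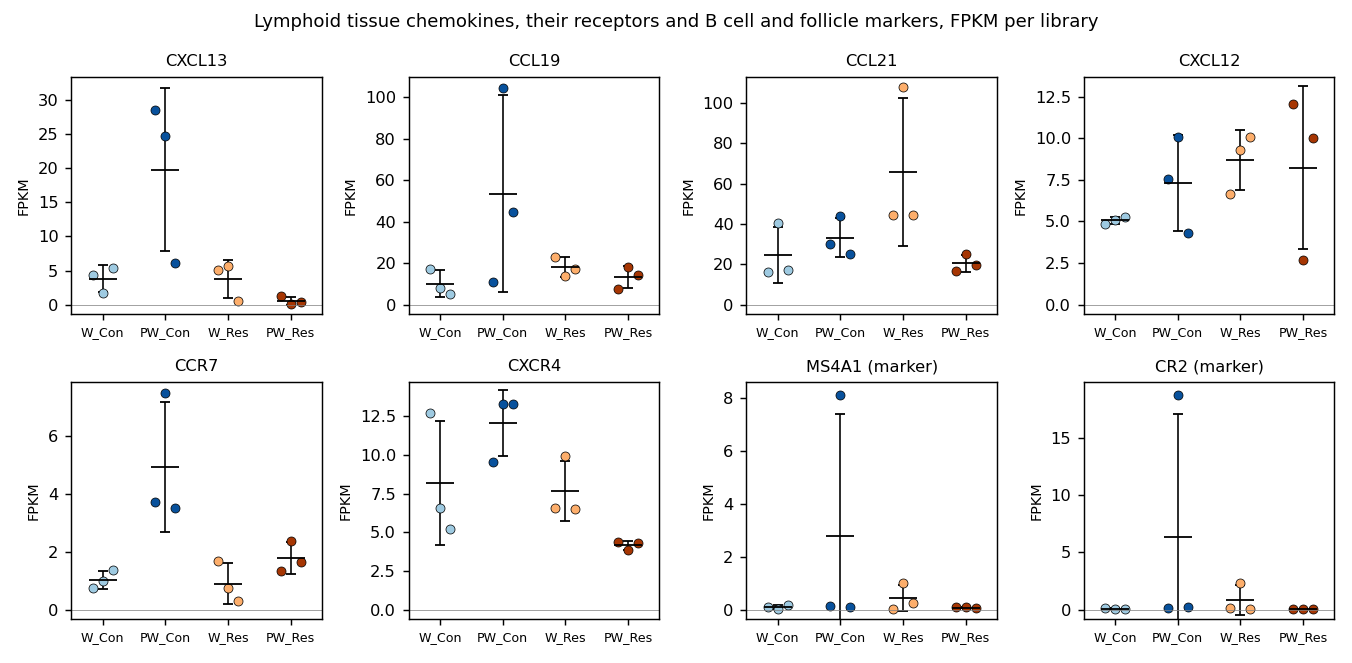
Points are FPKM of single libraries (linear axes, 3 per group), with bars at the group mean and SD, cut off at the axis where they would pass below 0, for lymphoid tissue chemokines, their receptors and the markers MS4A1 and CR2. CXCL13 was high in both PW_Con1 and PW_Con2, while MS4A1 and CR2 were high only in PW_Con2.

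The neutrophil chemokines CXCL8 and CXCL2 and the inflammatory cytokine IL1B1 fell in PW_Res too, while CCL2, CCL20, IL1A and IL18 did not pass the test, at log2 fold changes of -0.57, 0.53, 0.09 and 0.46. CXCL8 (interleukin 8), a neutrophil attractant, had 19.1, 6.88 and 15.9 FPKM in PW_Con and 4.28, 3.69 and 6.97 FPKM in PW_Res. PW_Con2 lay just below PW_Res3, and the other libraries were separated. The log2 fold change was -1.25 (standard error 0.33, limma adjusted p = 0.411), and -0.99, below the limit, without PW_Con replicate 1. CXCL2, a neutrophil chemokine of the same family, had 3.35, 1.55 and 6.13 FPKM in PW_Con and 0.226, 0.610 and 0.911 FPKM in PW_Res, with no overlap. Its log2 fold change was -1.46 (standard error 0.46, limma adjusted p = 0.470), from the sum of 6 loci of that name that may share reads. IL1B1, a pig gene for IL-1β, had 4.78, 1.90 and 5.58 FPKM in PW_Con and 1.86, 1.06 and 0.398 FPKM in PW_Res. The groups were separated only narrowly, and the log2 fold change of -1.25 (standard error 0.37, limma adjusted p = 0.466) shrank to -0.98 without PW_Res replicate 3.

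TNF, a central inflammatory cytokine, had 5.48, 2.19 and 3.89 FPKM in PW_Con and 1.70, 1.43 and 1.15 FPKM in PW_Res. All PW_Res libraries were lower, but the log2 fold change of -0.95 (standard error 0.27, limma adjusted p = 0.466) was short of the limit on size. IL10, an anti-inflammatory cytokine, was lower as well, with 2.91, 2.21 and 3.93 FPKM in PW_Con against 1.59, 1.46 and 1.48 FPKM in PW_Res, at a log2 fold change of -0.65. TGFB1, which promotes IgA class switching and regulatory T cells, had 11.1, 19.0 and 16.4 FPKM in PW_Con and 10.3, 11.7 and 8.85 FPKM in PW_Res. IL18, an epithelial cytokine, had 30.2, 13.2 and 20.1 FPKM in PW_Con and 14.3, 29.8 and 50.5 FPKM in PW_Res, with overlap.

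Chemokines of T cell and NK cell recruitment were also among the lower members. CXCL9, an interferon-γ-induced ligand of CXCR3, had 11.3, 3.16 and 1.38 FPKM in PW_Con and 0.451, 0.231 and 0.321 FPKM in PW_Res. The PW_Con libraries were widely spread, but all were above the PW_Res libraries, and the log2 fold change was -1.90 (standard error 0.48, limma adjusted p = 0.411). With a library left out it ran from -2.43 to -1.24, and the call was kept in all 21 alternatives. The related CXCL11 was lower at an unadjusted P under 0.05, with 2.08, 3.07 and 0.689 FPKM against 0.678, 0.262 and 0.388 FPKM. CXCL10, the most abundant of the CXCR3 ligands, passed neither limit, with 113, 78.2 and 49.4 FPKM in PW_Con and 58.1, 35.9 and 29.2 FPKM in PW_Res. CCL4, an attractant of T cells and macrophages, had 9.69, 4.34 and 7.41 FPKM in PW_Con and 5.25, 1.91 and 1.89 FPKM in PW_Res. PW_Res1 lay above PW_Con2, and the log2 fold change of -1.07 (standard error 0.32, limma adjusted p = 0.466) was lost under either rescaling and without PW_Con replicate 1, PW_Res replicate 2 or PW_Res replicate 3.

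IL28B, an interferon lambda that acts mainly on epithelium, was the only member higher in PW_Res at the standard. It had 0.995, 1.46 and 0.296 FPKM in PW_Con and 5.01, 7.40 and 2.89 FPKM in PW_Res. No PW_Res library overlapped PW_Con, and the log2 fold change was 1.65 (standard error 0.40, limma adjusted p = 0.411), kept in all 21 alternatives. IL28B passed the filter of 0.5 FPKM only through PW_Res, with group means of 0.511 FPKM in W_Con, 0.916 in PW_Con and 0.0341 in W_Res. Its calls that involve PW_Res are therefore drawn from the group that admitted it. Its receptor chain IL28RA had 4.72, 4.76 and 2.58 FPKM in PW_Con and 6.60, 2.45 and 3.12 FPKM in PW_Res. Interferon lambda genes are near-identical copies, so that reads may have been split or merged among them.

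The other 8 lower members at an unadjusted P under 0.05 were CCL5, CCL3L1, IFNG and the receptors IL13RA1, IL2RG, IL10RA, IL21R and CXCR6, of which CCL3L1, IL21R and CXCR6 are named after their values were seen. IL13RA1, which binds IL-13, had 41.6, 41.3 and 33.8 FPKM in PW_Con and 25.2, 19.7 and 21.6 FPKM in PW_Res, a log2 fold change of -0.79. CCL5 had 38.0, 55.8 and 49.96 FPKM in PW_Con and 43.7, 26.9 and 10.8 FPKM in PW_Res, with overlap. The groups were separated for IL13RA1, and PW_Res3 was far the lowest library for CCL5. IL21R, the receptor of a follicular helper T cell cytokine, had 1.83, 2.55 and 1.58 FPKM in PW_Con and 0.728, 0.810 and 0.637 FPKM in PW_Res. CXCR6, the receptor of CXCL16, had 4.08, 4.28 and 4.60 FPKM in PW_Con and 2.83, 1.63 and 2.17 FPKM in PW_Res. Neither overlapped between the diets, and their log2 fold changes were -0.78 and -0.75. CXCL16, the ligand of CXCR6, was not lower, at 54.2, 48.5 and 19.0 FPKM in PW_Con and 64.9, 72.98 and 50.5 FPKM in PW_Res. Among all members, 19 (26%) had every PW_Res library below every PW_Con library, against 11.8% of all gene names tested, and for 3 against 3 libraries the smallest two-sided P of an exact permutation test of a single gene is 0.1.

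Markers of T cells and NK cells moved in the same direction. The summed FPKM of 17 such markers was 280 to 319 in PW_Con and 82.8 to 183 in PW_Res, all 17 had a log2 fold change below 0, and GZMA, NKG7 and KLRK1 fell at the standard. GZMA, a granule protease of cytotoxic cells, had 116, 81.7 and 101 FPKM in PW_Con and 40.3, 29.9 and 20.7 FPKM in PW_Res. Of 7 macrophage and monocyte markers tested, 6 had a log2 fold change below 0, and in limma 2 had an unadjusted P under 0.05 but none met the standard. All 4 B cell markers were below 0, and in limma none met the standard or had an unadjusted P under 0.05. Of 6 germinal centre and follicle markers tested, all had a log2 fold change below 0 with a median of -0.83, 3 had an unadjusted P under 0.05, and CLU (-1.55) and S1PR2 (-1.08) fell at the standard. CLU had 10.6, 94.1 and 14.7 FPKM in PW_Con and 6.37, 9.71 and 7.73 FPKM in PW_Res, so that its highest value was in PW_Con2. The summed level of the follicle list was 24.6, 144 and 28.6 FPKM in PW_Con and 12.9 to 24.0 FPKM in PW_Res. The part of these cells in the lower chemokine values was not tested.

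In sucking piglets, TNFSF10, IFNG and the CC chemokines CCL4, CCL5 and CCL8 were lower in resveratrol litters, and CCL21 and IL17B were higher. In W_Res against W_Con, 5 members fell and 2 rose at the study's standard, or 9.59% of the members against 4.77% of all gene names tested. The falls were 6.85% of the members against 1.44% of all gene names, and the rises 2.74% against 3.34%. By adjusted p in limma no member passed 0.05, where 0.0466% of all gene names did. At an unadjusted P under 0.05 there were 10 members (13.7%, against 18.5% of all gene names), 7 lower (9.59%, against 5.45%) and 3 higher (4.11%, against 13%). The members' median log2 fold change was 0.02, beside 0.08 over all gene names. Without W_Con replicate 1 the count of members was 11 (15.1%) in place of 7, against 6% of all gene names. The adjusted counts turned on single libraries: without W_Res replicate 1 TNFSF10 was under 0.05 with 129 gene names, and without W_Res replicate 3 TNFSF10, IFNG and IL17B were, with 137 gene names, in place of 6.

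TNFSF10 (TRAIL), a death receptor ligand of NK cells and epithelium, had 30.4, 22.3 and 28.9 FPKM in W_Con and 9.32, 6.74 and 3.72 FPKM in W_Res. All W_Res libraries were below a level of 10 FPKM and all W_Con libraries above 20 FPKM. The log2 fold change of -1.95 (standard error 0.33, limma adjusted p = 0.0741) was kept in all 22 alternatives, at -2.21 to -1.65. IFNG (interferon-γ) had 4.27, 2.48 and 2.65 FPKM in W_Con and 0.323, 0.168 and 1.43 FPKM in W_Res. It fell by 1.39 on the log2 scale (standard error 0.28, limma adjusted p = 0.0935), with no overlap, and kept the call in all 21 alternatives. In weaned piglets IFNG was lower again with resveratrol, with 1.03, 1.34 and 1.26 FPKM in PW_Con and 0.236, 0.277 and 0.0424 FPKM in PW_Res, at a log2 fold change of -0.90 that was short of the limit.

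CCL5 had 40.0, 33.0 and 38.2 FPKM in W_Con and 16.7, 15.6 and 17.8 FPKM in W_Res. The groups were far apart relative to their spread, and the log2 fold change was -1.10 (standard error 0.37, limma adjusted p = 0.166). CCL4 had 4.0, 4.81 and 4.97 FPKM in W_Con and 1.94, 1.25 and 1.88 FPKM in W_Res, and CCL8, an attractant of monocytes, had 11.6, 17.0 and 16.7 FPKM in W_Con and 2.96, 6.59 and 9.73 FPKM in W_Res. All these W_Res libraries were below those of W_Con, with log2 fold changes of -1.06 for CCL4 (standard error 0.32, limma adjusted p = 0.141) and -1.21 for CCL8 (standard error 0.33, limma adjusted p = 0.125). The standard was not met for CCL4 without W_Res replicate 2 and for CCL8 without W_Res replicate 1. IL10 was lower too, at 3.52, 3.18 and 3.92 FPKM in W_Con and 1.37, 2.11 and 1.41 FPKM in W_Res, a log2 fold change of -0.79.

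Most T cell markers had lower values in these same libraries. Of the 17 T cell and NK markers, 12 had a log2 fold change below 0 and 5 above 0 (CD4, CD5, CD8B, PRF1 and KLRB1, none past the test), with a median of -0.61. The summed FPKM of the list was 307 to 479 in W_Con and 94.6 to 171 in W_Res, and 6 of them fell at the standard, namely CD3D, CD3E, CD3G, CD247, CD2 and GZMA. CD3E, a chain of the T cell receptor complex, had 82.5, 49.1 and 54.8 FPKM in W_Con and 12.5, 19.2 and 20.3 FPKM in W_Res. Smooth muscle markers went the other way: all 6 were above 0, and 5 rose at the standard, with TAGLN at 2.21 and CNN1 at 2.70 among them. Of 9 epithelial markers none met the standard in limma, and the 1 past an unadjusted P of 0.05 was KRT20, lower by a log2 fold change of -0.90. Of 7 macrophage and monocyte markers, 3 were above 0 with a median of -0.01. In limma only LYZ (-2.64) among them had an unadjusted P under 0.05, and it fell at the standard. The part of these cells in the changes of IFNG, TNFSF10, CCL4, CCL5, CCL8, CCL21 and IL17B was not tested.

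**Figure D4:**
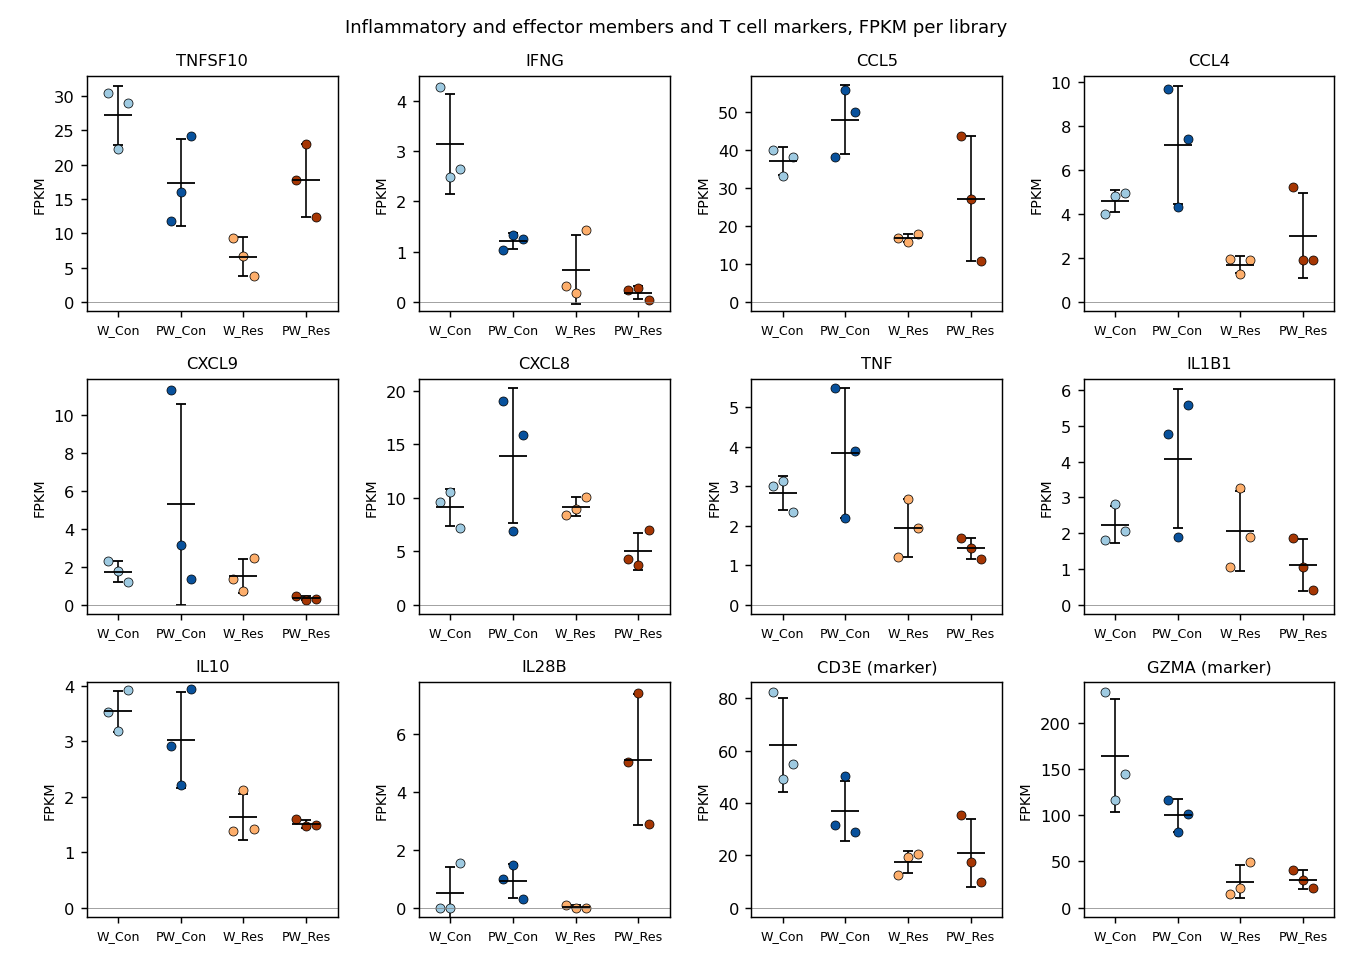
Points are FPKM of single libraries (linear axes, 3 per group), with bars at the group mean and SD, cut off at the axis where they would pass below 0, for 10 members and the markers CD3E and GZMA. TNFSF10 and CCL5 were low in all 3 W_Res libraries, and IL28B was high only in PW_Res, the group through which it passed the filter.

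The members that rose in W_Res were CCL21 and IL17B. CCL21, a ligand of CCR7 made by lymphatic endothelium and T cell zones, had 16.2, 40.5 and 17.1 FPKM in W_Con and 44.3, 108 and 44.6 FPKM in W_Res. W_Res2 had the highest value, the groups were narrowly separated, and the log2 fold change was 1.38 (standard error 0.41, limma adjusted p = 0.134). Without W_Res replicate 2 it was 0.96, below the limit. IL17B, a member of the interleukin 17 family, had 0.730, 0.230 and 0.169 FPKM in W_Con and 1.75, 4.12 and 0.658 FPKM in W_Res, with overlap and again its highest value in W_Res2. Its log2 fold change was 1.08 (standard error 0.35, limma adjusted p = 0.154), and 0.66 without W_Res replicate 2. The IL17B call was also lost without W_Con replicate 3 and under quantile normalization. W_Res2 was also the library with the highest smooth muscle sum, and the summed FPKM of 8 fibroblast and endothelial markers was 1490 there against 182 to 816 in the others, whose part in these values was not tested.

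At weaning in control litters, CXCL13 and CCL19, the lymphocyte receptors CCR7 and CCR9, and CXCL17 rose, while the lymphoid chemokines CCL21 and CXCL12 did not pass the test, at log2 fold changes of 0.51 and 0.39. In PW_Con against W_Con, 5 members rose and none fell at the study's standard, or 6.85% of the members against 3.1% of all gene names, where 1.36% of all gene names were higher and 1.74% lower. No member passed 0.05 by adjusted p in limma. At an unadjusted P under 0.05 there were 10 members (13.7%, against 15.3% of all gene names), 9 higher (12.3%, against 8.11%) and 1 lower (1.37%, against 7.21%). The count of 5 was 3 (4.11%) without W_Con replicate 2 or without PW_Con replicate 1, where 3.92% and 3.96% of all gene names met the standard (1.78% and 1.82% higher), so that the members' share was then near the background of both directions together.

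CCR7 rose from 0.737, 0.982 and 1.35 FPKM in W_Con to 3.72, 7.48 and 3.52 FPKM in PW_Con. All PW_Con libraries were more than 2 FPKM above the W_Con libraries, at a log2 fold change of 1.49 (standard error 0.31, limma adjusted p = 0.0898) that was kept in all 21 alternatives. CXCL17, a chemokine of mucosal epithelia, rose from 4.40, 3.78 and 3.37 FPKM to 21.0, 6.91 and 13.1 FPKM, without overlap. Its log2 fold change of 1.48 (standard error 0.36, limma adjusted p = 0.103) was kept in all 22 alternatives and came from the sum of 3 loci.

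CXCL13 had 4.40, 1.67 and 5.38 FPKM in W_Con, all below the PW_Con libraries given above, and rose by a log2 fold change of 1.96 (standard error 0.65, limma adjusted p = 0.190). CCL19 had 17.3, 7.96 and 5.22 FPKM in W_Con, overlapping PW_Con1, at a log2 fold change of 1.94 (standard error 0.66, limma adjusted p = 0.200). The standard was not met for CXCL13 without W_Con replicate 2 or PW_Con replicate 1, and for CCL19 without W_Con replicate 3 or PW_Con replicate 2. CCR9, the receptor of CCL25 on lymphocytes that home to the small intestine, had 0.247, 0.506 and 0.471 FPKM in W_Con and 3.46, 1.04 and 5.58 FPKM in PW_Con. The log2 fold change was 1.48 (standard error 0.66, limma adjusted p = 0.317), from the sum of 2 loci. The call was lost in 10 of 21 alternatives, the highest locus alone included. As a sum, CCR9 was higher in all 3 PW_Con libraries than in all 3 W_Con libraries. The highest locus was listed at 0 in every W_Con library and in PW_Con2, and at 3.33 and 4.43 FPKM in PW_Con1 and PW_Con3. IFNG was lower after weaning, at a log2 fold change of -0.88 that was short of the limit. PW_Con2, the library with follicle transcripts, had the highest CCR7 and CCL19 but neither the highest CXCL13 nor the highest CCR9. In the same comparison CD79B, a B cell gene, and CLU rose at the standard, at log2 fold changes of 2.05 and 1.74, each with its highest value in PW_Con2 (37.5 and 94.1 FPKM). Of the other marker lists, the epithelial gene TFF3 (1.26) and the plasma cell gene DERL3 (1.03) rose at the standard, and the epithelial FABP2 (-2.20) and the fibroblast gene PDGFRA (-1.55) fell. The part of these cells in the rises of CXCL13, CCL19, CCR7, CCR9 and CXCL17 was not tested.

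At weaning in resveratrol litters, IL28B and TNFSF10 rose, and CCL21, CXCL2 and IL33 fell. In PW_Res against W_Res, 2 members rose and 3 fell at the study's standard, or 6.85% of the members against 4.94% of all gene names, which split into 0.986% higher and 3.95% lower. No member passed 0.05 by adjusted p in limma. At an unadjusted P under 0.05 there were 12 members (16.4%, against 17.6% of all gene names), 9 lower (12.3%, against 14.2%) and 3 higher (4.11%, against 3.4%). The median log2 fold change of all gene names was itself -0.15 in this comparison and -0.00 after median-of-ratios rescaling, with the members' median at -0.26 and -0.10. Without W_Res replicate 2 the count of members was 8 (11%), while all gene names at the standard went from 636 to 389 (3.02%). Without W_Res replicate 1 it was 5 (6.85%), below the 8.5% of all gene names. The adjusted counts turned on single libraries, since IL28B had an adjusted p under 0.05 without W_Res replicate 1, W_Res replicate 3 or W_Con replicate 3, where 110, 130 and 3 gene names did.

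IL28B rose from 0.102 FPKM in W_Res1, and a listed 0 in the other W_Res libraries, to 5.01, 7.40 and 2.89 FPKM in PW_Res. The log2 fold change was 2.49 (standard error 0.40, limma adjusted p = 0.0850), for a gene that is a member only through PW_Res. TNFSF10 rose from the low W_Res values given above to 17.8, 23.05 and 12.4 FPKM, with no overlap, at a log2 fold change of 1.34 (standard error 0.33, limma adjusted p = 0.130). Both calls were kept in every alternative run, and TNFSF10 in PW_Res lay within the range of PW_Con (11.8, 16.1 and 24.2 FPKM).

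CCL21 fell from 44.3, 108 and 44.6 FPKM in W_Res to 16.8, 25.0 and 19.4 FPKM in PW_Res, at a log2 fold change of -1.52 (standard error 0.41, limma adjusted p = 0.140), and -1.10 at its smallest with a library left out. IL33, an alarmin of epithelial and stromal cells, fell from 1.55, 2.59 and 2.66 FPKM to 0.745, 0.126 and 0.674 FPKM, at a log2 fold change of -1.12 (standard error 0.34, limma adjusted p = 0.160). CXCL2 fell from 1.57, 1.84 and 6.98 FPKM to the PW_Res values given above, at a log2 fold change of -1.32 (standard error 0.46, limma adjusted p = 0.195). The groups did not overlap for any of these, but CXCL2 by its highest locus alone gave -0.35, and lost the call without W_Res replicate 3 or PW_Res replicate 1, as did IL33 without PW_Res replicate 2. CXCL2 and IL33 were also short of the standard under quantile normalization (-1.02 and -0.84), and IL33 by its highest locus (-0.93). Smooth muscle markers fell alongside, 5 of 6 at the standard. All 8 fibroblast and endothelial markers had a log2 fold change below 0, with a median of -1.12, 6 at an unadjusted P under 0.05 and 4 at the standard, COL1A2, DCN and LUM among them. Of 9 epithelial markers, 6 were above 0 with a median of 0.20, and 3 were higher at an unadjusted P under 0.05, namely KRT8 (1.22), which rose at the standard, KRT20 (0.96) and VIL1 (0.85). Of 6 germinal centre and follicle markers tested, 2 were above 0 with a median of -0.42, and 1 fell at the standard. The part of these cells in the falls of CCL21, CXCL2 and IL33 and in the rises of TNFSF10 and IL28B was not tested.

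The change at weaning differed between the litter sets for 10 members at the study's standard, 8 with a more negative and 2 with a more positive change in resveratrol litters. This is 13.7% of the members against 7.76% of all gene names (5.95% more negative and 1.81% more positive), with no member past 0.05 by adjusted p in limma and 13 members (17.8%) at an unadjusted P under 0.05, against 13.7% of all gene names. The weaning effect had the same sign in both litter sets for 34 of the 73 members (46.6%), and for 54.3% of all gene names. CXCL13 had a weaning effect of 1.96 in control litters and -1.39 in resveratrol litters, the largest difference at -3.35 (standard error 0.92, limma adjusted p = 0.251). The -1.39 was not a call (unadjusted P = 0.0548 in limma), and W_Res, at 5.01, 5.71 and 0.493 FPKM, overlapped PW_Res. TNFSF10 had -0.66 and 1.34, a difference of 2.00 (standard error 0.47, limma adjusted p = 0.251). Its change in control litters passed neither limit (unadjusted P = 0.0696 in limma), and W_Con and PW_Con overlapped. CXCL13, CXCR4, CXCL8, CCL21, TNFSF10 and IL28B (a member only through PW_Res) kept this call in every alternative run. CCL19 lost it in 6 of 21, among them without W_Res replicate 1 or PW_Con replicate 2. All 6 smooth muscle markers tested had a more negative change in resveratrol litters, 5 at the standard, with a median of -2.79. All 4 B cell markers were below 0, CD79B (-2.33) at the standard. At the standard 2 of 6 follicle markers and 1 of 7 macrophage and monocyte markers were more negative, and the epithelial KRT20 (1.17) was more positive. The part of these cells in the differences was not tested.

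**Figure D5:**
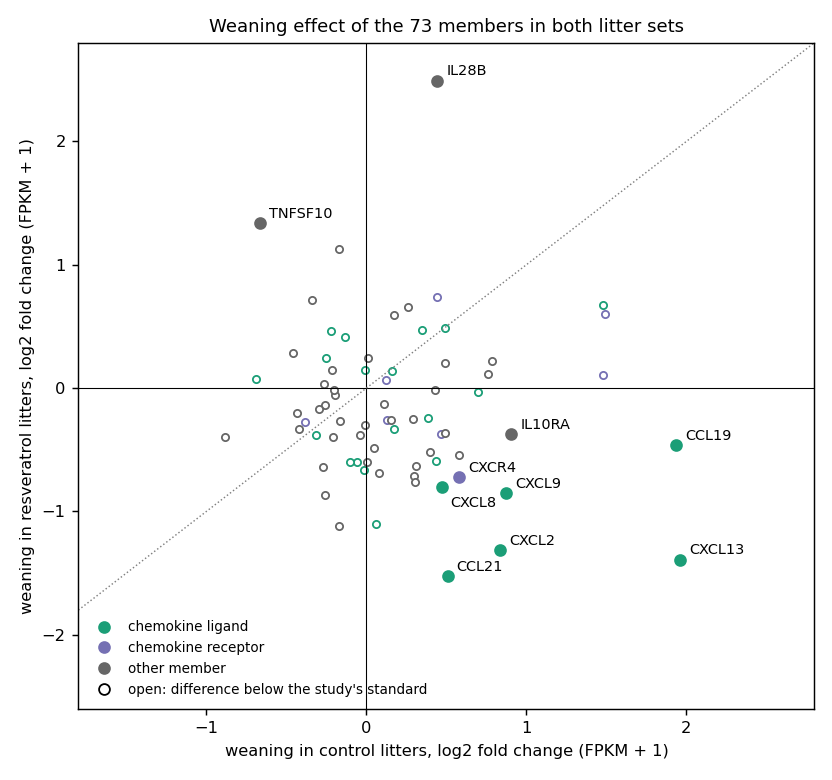
Each point is a member, placed by its log2 fold change at weaning in control litters (horizontal) and resveratrol litters (vertical), with the dotted line where both are equal. The 10 filled and named members are those whose weaning effects differed at the study's standard, from CXCL13 at 1.96 and -1.39 to IL28B at 0.44 and 2.49.

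Over both litter sets together, CCR7, CXCL17 and IL28B rose with weaning at the standard, or 4.11% of the members against 1.42% of all gene names (0.737% higher and 0.683% lower). Their log2 fold changes were 1.05, 1.08 and 1.47, with limma adjusted p of 0.0629, 0.0853 and 0.0629. IL28B, a member only through PW_Res, kept the call in all 20 alternatives. CCR7 lost it in 5 of 20, without W_Con replicate 1, W_Res replicate 3, PW_Con replicate 2 (0.90) or PW_Res replicate 2, and without W_Res2 and PW_Con2 together (0.88). CXCL17 lost it in 3 of 21, without W_Res replicate 2 (0.97), PW_Con replicate 1 (0.90) or PW_Res replicate 3 (0.97). By adjusted p in limma, 10 gene names (0.0776%) and no member were under 0.05. The 3 members were under 0.05 after median-of-ratios rescaling, with 196 gene names, and without W_Res replicate 1, with 173 gene names, IL28B alone without W_Con replicate 3, and none in the other alternatives.

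CCL28, CCL20 and CCR10, which like CCL25 serve the traffic of lymphocytes to mucosae, met the standard in no comparison. CCL28, which attracts IgA plasma cells, had 1.64 to 6.77 FPKM in W_Con, 1.11 to 7.88 in PW_Con, 2.00 to 4.38 in W_Res and 1.19 to 2.74 in PW_Res. Its receptor CCR10 and CCL20, the ligand of CCR6 at follicle-associated epithelium, lay between 0.258 and 3.69 FPKM and between 0.449 and 5.40 FPKM over the 12 libraries. TNFSF13B (BAFF), a B cell survival factor, ranged from 1.09 to 9.77 FPKM, IL7 from 1.24 to 5.43 FPKM and IL15 from 0.397 to 2.22 FPKM, likewise with no call.

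Related genes outside the naming rule were counted in the same way. Of 26 cytokine signalling genes tested, such as the JAK kinases and STAT factors, none met the standard in limma in any comparison of a pair of groups. Between diets in weaned piglets 1 gene passed an unadjusted P of 0.05, as did 6 or 7 in each of the other comparisons. Of 27 other cytokines and receptors, 1 fell in PW_Res against PW_Con, TNFRSF4 (OX40), a co-stimulatory receptor of activated T cells. It had 3.19, 5.0 and 4.98 FPKM in PW_Con and 0.827, 0.605 and 0.883 FPKM in PW_Res, clearly apart, at a log2 fold change of -1.59. XCL1, a chemokine of cytotoxic lymphocytes, fell in W_Res against W_Con, from 19.0, 12.7 and 10.5 FPKM to 3.72, 5.26 and 6.02 FPKM. MIF rose and TGFB3 fell at weaning in resveratrol litters, and ACKR3, a scavenger receptor of CXCL12, rose at weaning in control litters.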

How the data were processed

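Jejunum RNA of 12 piglets in 4 groups of 3 was analysed. The authors deposited FPKM per locus. The submitters' processing notes name HISAT2 2.0, StringTie 1.3.0, Bowtie 0.12.2, Sscrofa10.2 and mm8, while the study's methods name TopHat, StringTie and Ballgown. The table holds no counts, so that depth per gene is unknown. Unnamed loci (17650, or 42.8%) were dropped, and FPKM of loci sharing a name were summed (29 of 73 members have several loci). Names with a mean of at least 0.5 FPKM (12886) were fitted as log2(FPKM + 1) with limma 3.58.1 in R 4.3.3, using lmFit and eBayes with a trend over all 4 groups and 6 contrasts. A call at the study's standard needs both P under 0.05 before adjustment and a log2 fold change beyond 1, and the Benjamini-Hochberg adjusted p over all 12886 names stands beside it.

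Values are given for members that met the standard, the 10 highest and a textbook set, and others as ranges. The members, lists and roles were chosen with earlier results of these data known. Alternatives were a pseudocount of 0.1, no filter or a minimum of 5 FPKM, median-of-ratios and quantile scaling, eBayes without a trend, the highest locus, a replicate block, only the groups compared, and leaving out each library. On simulated data for weaned piglets between diets, 181 of 200 genes changed by a log2 fold of 1.5 met the standard among 12886. So did 1.09% of the unchanged genes, beside 1.55% of all gene names called in the real data. By adjusted p under 0.05 in limma, 131 of the 200 were found. The simulation drew normal noise for each gene independently, without correlated genes or libraries that stand apart. Its shares therefore cannot be carried over to the real data. Values of 1 member and of a few related genes are not reported here, although the counts include them. No sequence or coordinate is given, since no genome of the files' build was used here.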

Additional observations from a re-analysis of the deposited data

Results flagged for a closer look

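In 10 members the change at weaning differed between control and resveratrol litters by limma's test of that difference, at the study's standard but with adjusted p of 0.251 to 0.311. The more negative changes in resveratrol litters were those of CXCL13 (difference of -3.35 on the log2 scale), CCL19 (-2.40), CXCL2 (-2.15), CCL21 (-2.03), CXCL9 (-1.73), CXCR4 (-1.30), IL10RA (-1.28) and CXCL8 (-1.27). IL28B (2.05), a member only through PW_Res, and TNFSF10 (2.00) had the more positive changes. CCL19, CXCL9, IL10RA and CXCL2 lost the call in at least 1 alternative, CCL19 and IL10RA among them without W_Res2 and PW_Con2 together. IL10RA, a chain of the IL-10 receptor, had 3.00, 4.79 and 4.77 FPKM in W_Con, 8.82, 11.3 and 6.25 in PW_Con, 6.09, 10.15 and 4.77 in W_Res, and 3.42, 6.87 and 5.0 in PW_Res, so that control litters were separated by weaning and resveratrol litters overlapped.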

How the results depend on the processing

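The 40 calls of named members were refitted in 848 alternatives: 773 kept the standard, 75 kept the direction only, and none reversed. The counts with each library left out in turn follow, with the share of all gene names at the same cut in brackets. Members at the standard numbered 3 to 6 for weaning in control litters (2.65% to 3.96%). All were rises, except that without W_Con replicate 1 only 4 of 5 were. There were 4 to 8 for weaning in resveratrol litters (3.02% to 8.5%) and 2 to 4 for both together (1.19% to 1.98%). Diet in sucking piglets gave 6 to 11 (3.21% to 7.89%), 4 to 7 of them falls (1.26% to 2.3%). Diet in weaned piglets gave 7 to 12 (1.52% to 2.77%), 6 to 11 of them falls (0.877% to 1.55%). At an unadjusted P under 0.05, 14 to 22 members were lower there (3.73% to 5.83%). The difference of weaning effects gave 10 to 15 at the standard (4.89% to 10.6%). A pseudocount of 0.1 gave 10 members for weaning in resveratrol litters (13.7%, against 9.6% of all gene names), 6 for both litter sets (8.22%, against 4.59%), and 17 for diet in weaned piglets (23.3%, against 3.54%), 16 of them falls, but 5 for weaning in control litters (6.85%, against 6.08%), 8 for diet in sucking piglets (11%, against 9.2%) and 12 for the difference (16.4%, against 10.3%). For the first 3 of these the counts over all gene names rose too, from 636 to 1237, from 183 to 591 and from 200 to 456. A minimum mean of 5 FPKM left 25 members, of which 3 met the standard for weaning in control litters (3 rises; 12%, against 3.48% of all gene names), 2 in resveratrol litters (8%, against 3.36%), 1 over both (4%, against 1.87%), 4 for diet in sucking piglets (3 falls; 16%, against 3.97%), 4 in weaned piglets (4 falls, 7 lower at an unadjusted P under 0.05; 16%, against 1.78%) and 7 for the difference of weaning effects (28%, against 5.78%). The lower counts follow from fewer members tested. Quantile normalization gave 3 for weaning in resveratrol litters (4.11%, against 3.18%), and leaving out both W_Res2 and PW_Con2, chosen after the data were seen, gave 8 (11%, against 2.91%). Both rescalings lowered the count for diet in weaned piglets. Median-of-ratios gave 7 (9.59%, against 1.57%), 6 of them falls, and quantile normalization 8 (11%, against 1.39%), 7 of them falls. Lower at an unadjusted P under 0.05 were then 17 (23.3%, against 4.07%) and 18 (24.7%, against 3.81%). The cause of the other shifts was not tested. Replicate numbers did not pair the libraries (r of same-number deviations -0.26 to 0.30, 5 of 18 above 0.1, best partner of the same number in 12 of 36). With the replicate block the counts were 5, 7, 3, 7, 9 and 11 in the same order of comparisons. These were 6.85%, 9.59%, 4.11%, 9.59%, 12.3% and 15.1% of the members. The shares of all gene names were 3.11%, 4.97%, 1.46%, 4.97%, 1.62% and 8.22%. In weaned piglets 21 members (28.8%, against 5.77%) were lower at an unadjusted P under 0.05.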
